A study of Mus musculus with 12 samples.

Results

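Cells of PyMT breast tumors were bead-selected for CD11c, the integrin of macrophages and DCs, or for CD4 and CD8, the coreceptors of T cells. Mammary epithelial cells were found among them. The epithelial cells were picked by raw UMI counts (unique molecular identifiers, 1 per captured mRNA molecule), among cells with at least 200 detected genes and 2000 UMIs. They held at least 1 UMI of Epcam, 2 of Krt8 and 2 of Krt18 and no UMI of Ptprc, the gene of the pan-leukocyte antigen CD45. By this rule 218 of 9429 cells past the depth minimum were epithelial in the CD11c-selected matrix, a share of 2.31% (95% confidence interval 2.02% to 2.64%), and 232 of 19251 in the CD4/CD8-selected matrix, 1.21% (1.06% to 1.37%). These 450 cells stood among 35081 deposited barcodes. The comparison throughout is with the cells of the same matrix at the same depth that held at least 1 UMI of Ptprc, 8419 in the CD11c-selected and 18198 in the CD4/CD8-selected matrix, called Ptprc-positive cells below.

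The mice carried MMTV-PyMT, the polyoma middle T oncogene driven in the mammary gland by the mouse mammary tumor virus promoter, and developed breast tumors without further treatment. Each matrix joins 6 samples, 3 PyMT-PAR2 WT (wild-type) and 3 PyMT-PAR2 G37I, the mutant of protease-activated receptor 2 that resists signaling by coagulation factor Xa. All samples share the PyMT transgene, and its transcript was not analysed here. Malignant cells were not told apart from normal mammary epithelium. The CD11c-selected cells came from late-stage tumors and the CD4/CD8-selected cells from mid-size tumors, so that selection and stage cannot be told apart. The cell barcodes name no sample. Each matrix was therefore treated as 1 sample, genotypes were not compared, and no value has a replicate error or a p-value. The beads targeted leukocytes, so the number of epithelial cells is that of cells carried through the selection and not their share of the tumor.

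In the mammary gland an inner luminal layer of epithelium, marked by keratins 8 and 18, lines the ducts and alveoli and makes milk, and an outer basal layer, marked by keratins 5 and 14, contracts. Luminal cells divide into hormone-sensing cells, which carry the estrogen, progesterone and prolactin receptors, and secretory cells with their progenitors, which follow the factor Elf5 and make caseins and whey proteins. Tumors driven by PyMT arise in the luminal epithelium, where middle T binds Src family kinases, Shc1 and phosphatidylinositol 3-kinase at the membrane.

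A level is given as UMIs of a gene summed over a group of cells and scaled to 1000000 UMIs of that group (CPM), with exact 95% Poisson intervals where counts are low. These counts are not divided by transcript length, so levels of different genes compare numbers of captured molecules. A gene was called at a difference of at least 4-fold among genes with at least 10 CPM in either group. Against Ptprc-positive cells 14.8% of genes tested were called higher and 10.3% lower in the CD11c-selected matrix. In the CD4/CD8-selected matrix the shares were 16.4% and 9.25%. A list count near these shares does not set its list apart. Intervals cover counting error only. Where a pair of values is given, the first belongs to the CD11c-selected and the second to the CD4/CD8-selected matrix, unless stated otherwise.

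The epithelial cells were deep. Their median was 20180 UMIs and 4462.5 genes in the CD11c-selected matrix, against 10456 UMIs and 2795 genes in Ptprc-positive cells. In the CD4/CD8-selected matrix it was 22616.5 UMIs and 4658 genes, against 4877.5 UMIs and 1686 genes. Mitochondrial genes took a median of 11.7% and 9.08% of their UMIs, against 4.66% and 4.29% in Ptprc-positive cells. Shares of cells with a UMI rise with depth. Those of Krt19, Csn3 and F2rl1 are also given after each cell had been thinned at random to 2000 UMIs. Those within the Csn3-low cells defined below are given after thinning alone, and the others are unthinned. The upper quartile of epithelial cells was 38881 and 45002.5 UMIs, against 16553.5 and 7206 in Ptprc-positive cells. The deepest epithelial cells held 147156 and 150520 UMIs, and deep cells weigh more in summed levels. Doublets were not removed.

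The barcodes of each matrix pass through the alphabet 6 times, as many times as samples were pooled, and each pass is named a barcode run here. Neither labels nor files say which sample or genotype a run belongs to. In the CD11c-selected matrix the 6 runs held 28, 32, 108, 4, 10 and 36 epithelial cells, or 2.02%, 1.40%, 6.35%, 1.11%, 0.519% and 2.04% of the cells past the depth minimum. In the CD4/CD8-selected matrix the runs held 23, 20, 68, 61, 40 and 20 cells, or 0.486%, 0.853%, 2.15%, 2.71%, 1.96% and 0.423%. The run with 6.35% gave 108 of the 218 CD11c-selected cells, and every run of both matrices held some. Ranges over runs are given for the 5 and 6 runs with at least 10 epithelial cells. Within a matrix 76 and 51 barcodes occur more than once, and 2 epithelial cells, both CD11c-selected, carried such a barcode. Of 92 barcodes found in both matrices none belonged to an epithelial cell.

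**Figure D1:**
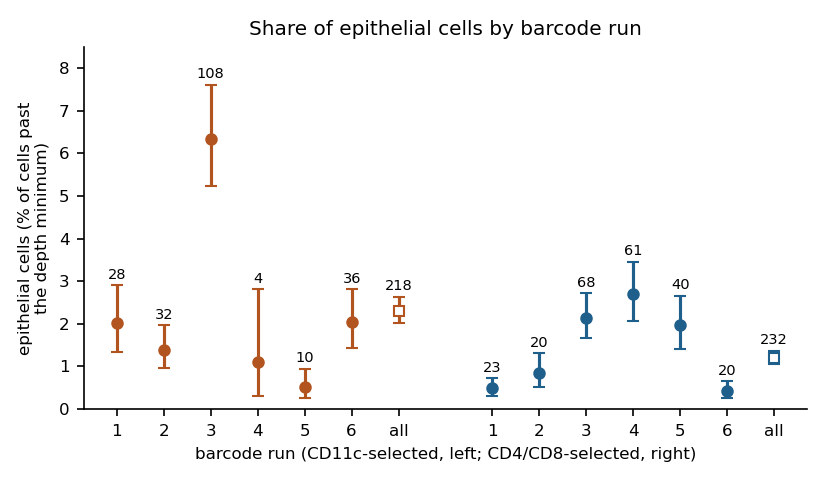
Epithelial cells as a percent of cells past the depth minimum (y axis) in each of the 6 barcode runs of the 2 matrices (x axis), with exact 95% intervals and the number of cells. The third run of the CD11c-selected matrix stands highest at 6.35%, and the other runs lie between 0.423% and 2.71%.

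The label of the cells was checked against 15 luminal markers. All 15 were at least 4-fold higher than in Ptprc-positive cells in both matrices, where 14.8% and 16.4% of all genes tested were that much higher and 10.3% and 9.25% that much lower. Epcam, Krt8 and Krt18 chose the cells, and every other gene was measured in the same chosen cells, so these counts describe the cells and test nothing. Summed over the list, luminal markers took 32728 and 33536 CPM, against 748 and 618 in Ptprc-positive cells. Over runs the sum lay between 30782 and 34756 CPM in the CD11c-selected and between 28585 and 38899 CPM in the CD4/CD8-selected matrix. The list and its sums hold Epcam, Krt8 and Krt18, which the rule used, and the run with 4 epithelial cells was left out of the range. The luminal markers that the rule did not use were all at least 4-fold higher as well.

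Markers of other cell types were low with a few exceptions. All 15 macrophage markers were at least 4-fold lower than in Ptprc-positive cells in both matrices, and their sum was 243 and 245 CPM against 37465 and 15775. It ranged over runs from 129.8 to 314 and from 32.6 to 476 CPM. The 8 dendritic cell markers summed to 109 and 31.3 CPM against 15684 and 1070.3, with Xcr1 and Clec9a at 0 in the first matrix and Clec9a and Cd209a at 0 in the second. The 11 T cell markers summed to 5.32 and 24.5 CPM against 49.1 and 6446, and Cd3d, Cd3g, Trbc1, Cd8a, Cd8b1 and Cd4 were at 0 in the CD11c-selected cells. The T cell sum of the CD11c-selected epithelial cells was thus low beside a Ptprc-positive sum that was itself low. Of the epithelial cells, 135 and 105 held a UMI of at least 1 of 8 T cell or macrophage genes, and the part of free RNA or of a second cell in these droplets was not tested.

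The remaining marker lists had small sums, some of them above the level in Ptprc-positive cells. B cell markers summed to 1.1 and 0.38 CPM against 9.12 and 5.08, and NK cell markers to 0.313 and 0.254 against 5.2 and 135. Endothelial markers summed to 6.57 and 5.96 CPM against 33.7 and 19.1, with Cdh5, Emcn and Cldn5 at 0 in both matrices. The adipocyte, red blood cell, pericyte and fibroblast lists had higher sums than in Ptprc-positive cells. Adipocyte markers summed to 0.783 and 0.254 CPM against 0.0731 and 0.0669. Red blood cell markers summed to 11.4 and 7.35 CPM against 0.685 and 0.677. Of the pericyte list, which summed to 42.0 and 40.7 CPM against 9.58 and 11.5, Notch3 gave 41.8 and 40.4 CPM. The fibroblast list summed to 139 and 203 CPM against 57.0 and 91.2. Over runs it lay between 12.9 and 367 and between 2.96 and 623 CPM. In each matrix 4 fibroblast genes passed the minimum, of which 1 was at least 4-fold higher and 3 and 0 lower. Their median log2 fold was -3.53 and -0.19. Of this list Dcn, the gene of the matrix proteoglycan decorin, gave 134 and 142 CPM. Dcn was held by 31 and 27 cells, and the 10 highest of them had 84.4% and 89.3% of its UMIs.

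A neutrophil gene stood apart from its list. S100a8, which encodes a calcium-binding protein best known from neutrophils, reached 85.0 and 210.4 CPM against 36.2 and 5.03 in Ptprc-positive cells. It was called higher in the CD4/CD8-selected matrix alone. S100a8 was held by 47 and 78 epithelial cells, and the 10 highest of them had 75.7% and 76.1% of its UMIs. Its usual partner S100a9 was held by 1 cell in each matrix, at 0.157 and 1.27 CPM. The neutrophil receptor gene Csf3r had 0 UMIs in the CD11c-selected epithelial cells, which allows a level of up to 0.47 CPM, and 0.254 CPM (CI 0.0307 to 0.916) in the CD4/CD8-selected cells. S100a8 was thus present without the other neutrophil markers at these depths.

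Few cells lay at the edge of the rule. At the minimum in at least 1 of the 3 epithelial genes lay 7 and 8 members, and 14 and 9 members had under 3000 UMIs. Just outside, 1 cell in each matrix failed by Epcam alone, and 5 and 4 failed by a single UMI of Krt8 or Krt18. A further 37 and 33 cells met the epithelial conditions but held Ptprc, 14 and 13 of them with 1 UMI. In those with 1 UMI Lyz2, the lysozyme gene of macrophages, stood at 593 and 74.2 CPM, against 30.5 and 37.8 in the members, and Csn3 at 4215 and 7637 CPM, against 5139.7 and 5659.8. In the cells that failed by a keratin Csn3 stood at 500 and 448 CPM. The 37 and 33 cells with Ptprc belong to the Ptprc-positive cells and add epithelial transcripts to their levels. Csn3 stood at 3680 and 7232 CPM in these 37 and 33 cells. Against Ptprc-positive cells without a UMI of Epcam, 1386 and 1534 genes were at least 4-fold higher and 947 and 848 lower. With all Ptprc-positive cells the counts were 1361 and 1506 higher and 941 and 850 lower.

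Keratins were nearly all higher in the epithelial cells, Krt8 and Krt18 by the rule. Of 17 keratin genes, 11 passed the minimum in each matrix, and 10 and 11 of these were at least 4-fold higher than in Ptprc-positive cells, with a median log2 fold of 6.38 and 6.57, against 0.29 and 0.23 over all genes tested. Krt8 reached 4665 and 4269 CPM against 64.1 and 46.6 in Ptprc-positive cells, and its runs lay between 4048 and 5391 and between 3678 and 5186 CPM. Krt18, its luminal partner, reached 3427 and 3835 CPM against 46.3 and 40.3. Both are values the rule used. Krt19, a keratin of simple epithelia that the rule did not use, reached 2059 and 1770.2 CPM against 24.7 and 10.4 and was held by 67.4% and 75% of the cells, or 44.0% and 50.9% after thinning. Krt7, of the same group, reached 469.8 and 411 CPM against 5.61 and 2.31.

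Of 32 genes of epithelial junctions 29 passed the minimum, and 26 and 27 were at least 4-fold higher, none lower, with a median log2 fold of 5.43 and 5.81. Epcam, the adhesion molecule of the rule, reached 3313 and 3754 CPM against 51.3 and 45.8. Among genes the rule did not use, the tight junction claudin Cldn4 reached 986 and 877 CPM against 10.8 and 9.12. Cldn3, of the same family, reached 752 and 955 CPM against 9.28 and 9.13. Cdh1, which encodes E-cadherin of the adherens junction, reached 525 and 363 CPM against 19.1 and 47.0 and was held by 97.2% and 94.8% of the epithelial cells. Cldn3 was held by 92.7% and 97.4% and Cldn4 by 85.8% and 89.2% of them. The desmosomal gene Dsp stood at 93.0 and 54.6 CPM against 1.29 and 0.56. Pkp2, plakophilin of the desmosome, stood at 82.7 and 61.0 CPM against 0.822 and 0.669. Of the genes not called, Ctnnb1, the cadherin-bound catenin that also serves Wnt signaling, stood at 286 and 276 CPM against 137 and 111, a fold of 2.09 and 2.49. Itga6 and Itgb4, which pair as the hemidesmosomal integrin, were both higher. Itgb4 stood at 77.5 and 56.2 CPM against 1.04 and 0.744.

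The regulators of this program followed. Of 22 transcription and splicing regulators of epithelium 20 and 21 passed the minimum, and 18 and 19 were at least 4-fold higher, with a median log2 fold of 5.83 and 6.31. Sox9, a factor of luminal progenitors, was among the highest at 585 and 677 CPM against 9.65 and 5.33. Klf5, a factor of epithelial growth, stood at 374 and 313 CPM against 5.83 and 3.5. Elf3, an ETS factor of epithelia, stood at 205 and 181 CPM against 2.37 and 2.67. These 3 levels were between 60.6 and 127 times those of Ptprc-positive cells. Grhl2, which keeps junction genes active, stood at 30.7 and 31.3 CPM against 0.484 and 0.326 as a factor of low level. The epithelial splicing factor Esrp1 stood at 91.3 and 72.1 CPM against 1.63 and 0.92. Elf5, the alveolar switch of the mammary gland, stood at 57.6 and 71.5 CPM against 1.07 and 1.16 and was held by 48.2% and 54.7% of the cells. Gata3, a factor of luminal cells and of T cells, was called in the CD11c-selected matrix alone, at 171 and 166 CPM against 4.46 and 59.2. Klf4 was not called in either matrix, at 419.5 and 553 CPM against 599 and 164.

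The promoters of 4 of these genes are shown because the letters CACCTG or CAGGTG, an E-box that repressors of the epithelial state such as Snai1 and Zeb1 can bind, lie in all of them. Sequences are RefSeq promoter windows of GRCm38.p6, 250 bases before to 50 after the start of the gene, written from 5′ to 3′ on the strand of the gene, with the E-box letters of either strand in capitals.
Epcam (chr17:87635729-87636028, plus strand): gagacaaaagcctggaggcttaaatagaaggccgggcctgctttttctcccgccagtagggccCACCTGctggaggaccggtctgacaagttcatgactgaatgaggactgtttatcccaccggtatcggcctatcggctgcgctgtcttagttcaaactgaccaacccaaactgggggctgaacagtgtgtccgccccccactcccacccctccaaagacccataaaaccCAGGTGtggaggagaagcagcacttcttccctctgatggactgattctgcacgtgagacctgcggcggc
Krt8 (chr15:102004293-102004592, minus strand): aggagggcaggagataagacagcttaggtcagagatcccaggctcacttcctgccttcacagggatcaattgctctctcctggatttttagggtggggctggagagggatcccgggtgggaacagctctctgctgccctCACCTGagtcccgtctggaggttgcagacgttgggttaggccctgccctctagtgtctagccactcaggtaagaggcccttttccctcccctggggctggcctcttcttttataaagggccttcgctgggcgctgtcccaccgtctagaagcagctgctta
Krt18 (chr15:102027966-102028265, plus strand): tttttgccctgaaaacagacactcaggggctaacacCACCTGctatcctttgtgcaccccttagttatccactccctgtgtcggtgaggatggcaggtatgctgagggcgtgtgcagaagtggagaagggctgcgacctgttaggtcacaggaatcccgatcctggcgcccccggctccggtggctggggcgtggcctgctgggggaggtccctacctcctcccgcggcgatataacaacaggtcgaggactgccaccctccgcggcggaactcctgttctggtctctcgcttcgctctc
Cldn4 (chr5:134946885-134947184, minus strand): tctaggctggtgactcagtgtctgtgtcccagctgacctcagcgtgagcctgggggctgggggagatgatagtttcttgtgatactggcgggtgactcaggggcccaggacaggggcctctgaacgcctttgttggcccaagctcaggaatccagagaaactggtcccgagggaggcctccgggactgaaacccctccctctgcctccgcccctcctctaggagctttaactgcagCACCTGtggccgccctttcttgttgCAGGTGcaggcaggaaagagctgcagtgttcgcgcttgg
In Epcam the letters began 187 and 19 bases before the start, in Krt8 111 and in Krt18 214 bases before it, and in Cldn4 14 bases before and 12 after. Of all 32851 windows 20.2% held the letters on either strand. Counted by gene, in any of its windows, they were in 20.7% of 6789 genes tested in both matrices, in 34.8% of 771 genes at least 4-fold higher in both and in 19.3% of 362 at least 4-fold lower in both. They were in 13 of 18 junction genes with a window, in 7 of 10 keratins and in 3 of 14 genes of mesenchymal transition. A match of letters is a description and not a bound site.

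Genes of mesenchymal transition were low as a list. Of 19 genes 14 passed the minimum, of which 2 were at least 4-fold higher and 9 and 6 lower, with a median log2 fold of -3.29 and -1.23. Vim, the intermediate filament of mesenchymal cells and leukocytes, stood at 43.8 and 36.4 CPM against 2536 and 1185. Fn1, fibronectin, stood at 66.4 and 26.2 CPM against 689 and 228. Zeb2, a repressor of E-cadherin, stood at 2.04 and 1.27 CPM against 542 and 118. These 3 genes were at least 4-fold lower in both matrices. Cdh2, N-cadherin, stood at 0.47 and 1.14 CPM. The genes called higher were Itgb6 and Snai1. Itgb6, an epithelial integrin subunit that activates TGF-beta, stood at 38.0 and 26.5 CPM against 0.265 and 0.192. Snai1, another repressor of E-cadherin, stood at 23.3 and 24.3 CPM against 0.895 and 1.26 and was held by 27.5% and 27.6% of the cells. Cd44, an adhesion receptor for hyaluronan used as a mark of PyMT tumor cells, stood at 305 and 240.4 CPM against 579 and 191, was held by 85.3% and 83.6% of the epithelial cells and was not called. The contrast is with leukocytes, which express Vim, Fn1 and Zeb2 themselves.

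**Figure D2:**
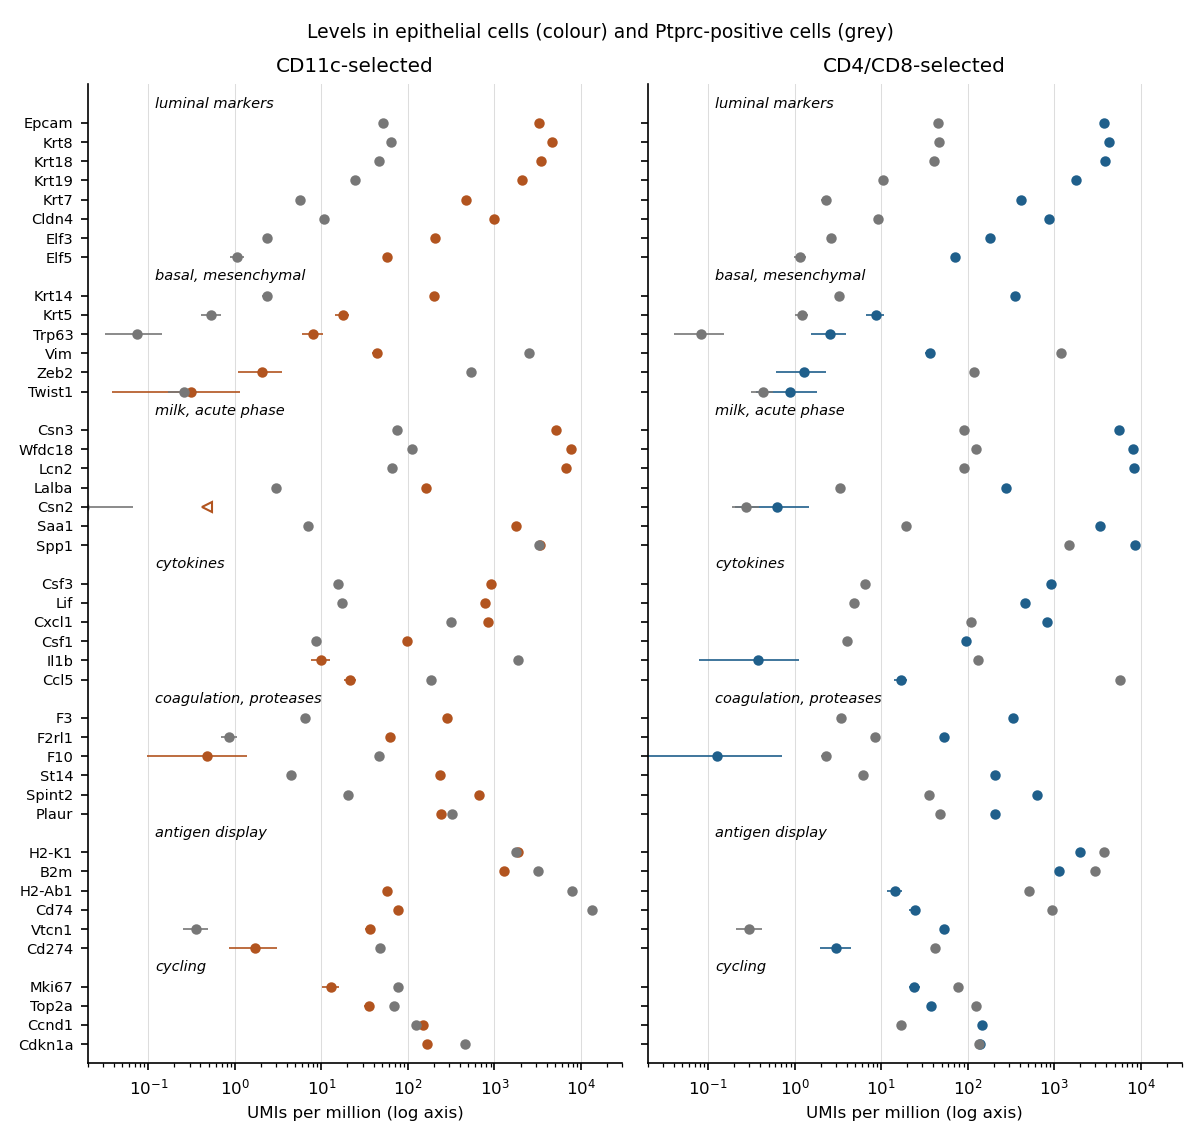
Levels of named genes (rows) in CPM on a log axis, in epithelial cells (colored points) and Ptprc-positive cells (grey points) of the CD11c-selected (left) and CD4/CD8-selected (right) matrix, with exact 95% Poisson intervals as bars and an open triangle at the limit that 0 UMIs allow. Krt8 at 4665 and 4269 and Csn3 at 5139.7 and 5659.8 lie far to the right of the grey points, and Vim at 43.8 and 36.4 and Cd74 at 76.7 and 24.3 far to the left.

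Basal genes were present in part of the cells, at low levels when summed over all of them. Of 11 basal and myoepithelial genes 6 and 5 passed the minimum and all of these were at least 4-fold higher, with a median log2 fold of 4.93 and 5.01. Krt14, the basal keratin, stood at 199 and 349 CPM against 2.32 and 3.23 and was held by 69 and 96 cells. Its UMIs were concentrated, with 52.1% and 45.6% of them in the 10 highest cells. Krt5, which pairs with Krt14 in basal cells, was held by 6 and 5 cells, at 17.5 and 8.62 CPM, and 5 cells in each matrix held both. The basal factor Trp63 stood at 7.98 and 2.54 CPM and the contractile genes Acta2 and Myh11 at 31.8 and 58.3 and at 2.04 and 3.42 CPM. Krt14 thus occurred mostly without Krt5, in 5 of 69 and 5 of 96 cells with it. Over runs Krt14 stood at 328, 545, 152, 72.8 and 128 CPM in the CD11c-selected and at 194, 342, 429, 222, 666 and 74.5 CPM in the CD4/CD8-selected matrix, with no run at 0.

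Milk and secretory genes were abundant. Of 22 genes 17 passed the minimum and 13 and 16 were at least 4-fold higher, none lower, with a median log2 fold of 5.76 and 5.97. Together they took 30238 and 38178 CPM. Wfdc18, a small whey acidic protein relative, stood at 7659 and 8139.8 CPM against 111 and 123 and was held by 92.2% and 92.2% of the cells. Lcn2, which binds bacterial iron carriers, stood at 6630.4 and 8424 CPM against 65.4 and 91.0. Csn3, kappa-casein, stood at 5139.7 and 5659.8 CPM against 74.2 and 90.3 and was held by 89.0% and 88.8% of the cells. After thinning the share with a UMI of Csn3 was 76.6% and 77.2%, against 6.98% and 7.32% of thinned Ptprc-positive cells. Ltf, lactoferrin, stood at 1571 and 1635 CPM against 16.1 and 11.6.

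The caseins were split. While Csn3 took over 5000 CPM, beta-casein Csn2 had 0 UMIs in the CD11c-selected epithelial cells and 5 UMIs, all in 1 cell, in the CD4/CD8-selected cells. Csn1s1, an alpha-casein gene, stood at 49.8 and 15.1 CPM from 15 cells in each matrix. Wap, whey acidic protein, stood at 3.44 and 5.32 CPM. Lalba, the alpha-lactalbumin of lactose synthesis, stood at 162 and 281 CPM against 3.0 and 3.33 and was held by 67 and 100 cells. Genes of full lactation were thus scarce beside Csn3. Spp1, osteopontin, was an exception in the list, at 3346 and 8564 CPM against 3228 and 1486, and was called in the second matrix alone. Muc1, a mucin of the luminal surface, stood at 139 and 178 CPM against 3.18 and 4.11.

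Other abundant transcripts were of general and of secretory genes. Outside ribosomal protein and mitochondrial genes the highest was Malat1, a nuclear noncoding RNA, at 25734 and 20183 CPM against 14992 and 15728. Igfbp5, an insulin-like growth factor binding protein, stood at 5597 and 4501 CPM against 90.6 and 54.8. Plet1, a surface protein of epithelial progenitors, stood at 4018 and 3454 CPM against 82.6 and 44.7. Igfbp5 and Plet1 were at least 4-fold higher in both matrices, and Malat1 in neither. Among genes held by at least 25% of the epithelial cells the highest folds in the CD11c-selected matrix were those of Saa1 (255-fold), Saa2 (217), Scgb2b27 (161), Itgb6 (144) and Shank2 (124). In the CD4/CD8-selected matrix they were those of Tmem56 (421-fold), Wnt7b (356), Wfdc2 (300.5), Prlr (279) and Prom2 (218). Saa1, Saa2, Wfdc2, Lrrc26 and Vtcn1 were among the 15 highest in both matrices.

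The acute phase genes Saa1 and Saa2 led that order in the CD11c-selected matrix. Saa1, serum amyloid A, a secreted protein of inflammation, stood at 1795 and 3354 CPM against 7.04 and 19.5 and was held by 95 and 106 cells. Saa2 stood at 491 and 1484 CPM against 2.26 and 8.6 and was held by 62 and 67 cells, 59 and 58 of which held Saa1 too. Both were concentrated, since 10 cells had 70.2% and 76.8% of the UMIs of Saa1. The genes are near copies of each other, so reads of one can fall to the other and their values are uncertain apart. Their promoter windows (GRCm38.p6, RefSeq) lie 8352 bases apart on opposite strands and are shown because 287 of 301 aligned positions, 95.3%, were identical. Capitals mark the bases that differ or face a gap.
Saa1 (chr7:46742931-46743230, minus strand): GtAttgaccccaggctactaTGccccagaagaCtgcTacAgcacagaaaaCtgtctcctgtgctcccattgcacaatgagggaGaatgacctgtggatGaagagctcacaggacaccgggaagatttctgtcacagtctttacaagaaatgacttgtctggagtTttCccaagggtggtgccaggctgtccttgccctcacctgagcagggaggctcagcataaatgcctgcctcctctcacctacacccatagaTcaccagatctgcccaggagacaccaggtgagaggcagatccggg
Saa2 (chr7:46751583-46751882, plus strand): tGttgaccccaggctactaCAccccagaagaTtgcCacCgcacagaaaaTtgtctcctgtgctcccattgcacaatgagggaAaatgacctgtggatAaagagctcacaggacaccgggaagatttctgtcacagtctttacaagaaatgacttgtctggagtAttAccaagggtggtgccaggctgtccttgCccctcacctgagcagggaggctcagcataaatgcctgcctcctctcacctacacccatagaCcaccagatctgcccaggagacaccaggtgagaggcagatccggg
Saa3, the form made by macrophages and other cells, was not called, at 24.1 and 24.3 CPM against 15.9 and 16.2. Other secreted genes of inflammation and host defense were high. Cp, ceruloplasmin, stood at 1097 and 1156 CPM against 26.9 and 10.9. Slpi, which inhibits leukocyte proteases, stood at 696 and 985 CPM against 16.2 and 11.6. Clu, clusterin, stood at 1775 and 1344 CPM against 23.7 and 7.28. These 3 were at least 4-fold higher in both matrices and, except for Clu, were chosen for naming after their values had been seen.

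Chemokines and cytokines went both ways. Of 33 genes 25 and 22 passed the minimum, of which 8 and 11 were at least 4-fold higher and 11 and 6 lower, with a median log2 fold of -1.06 and 1.24. The epithelial cells carried Csf3, granulocyte colony-stimulating factor, at 909.9 and 930.1 CPM against 15.6 and 6.59, held by 58.7% and 63.8% of the cells and in every run at 649 to 1399.9 and 498 to 1635 CPM. Lif, leukemia inhibitory factor, stood at 780.1 and 465 CPM against 17.5 and 4.92. Csf1, which sustains macrophages, stood at 97.8 and 95.6 CPM against 8.56 and 3.99. These 3 secreted factors were far higher in epithelial than in Ptprc-positive cells. The transforming growth factors divided, with Tgfb2 and Tgfb3 called higher and Tgfb1 lower in both matrices. Tgfb2 stood at 54.9 and 29.4 CPM against 1.08 and 0.535. Tgfb1 stood at 48.7 and 45.4 CPM against 238 and 202. Interleukin 1 belonged to the Ptprc-positive cells, with Il1b at 9.86 and 0.38 CPM against 1871 and 131. The monocyte chemokine Ccl7 stood at 10.3 and 6.97 CPM against 558 and 67.2.

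The neutrophil chemokines Cxcl1 and Cxcl2 were abundant in both kinds of cell. Cxcl1 stood at 835 and 827 CPM against 313 and 108 and was called in the CD4/CD8-selected matrix alone. Cxcl2 stood at 825 and 463 CPM against 2244 and 363 and was not called. Nfkbia, an inhibitor of NF-kB that NF-kB itself induces, stood at 848 and 1172 CPM against 876 and 433 and was chosen after its values had been seen. Windows of Cxcl1 and Cxcl2 (GRCm38.p6, RefSeq) are shown with capitals on the letters GGGA, 2 bases of any kind and TTCC, a form of NF-kB site, searched on both strands, whose matches on the strands overlap here.
Cxcl1 (chr5:90890995-90891294, plus strand): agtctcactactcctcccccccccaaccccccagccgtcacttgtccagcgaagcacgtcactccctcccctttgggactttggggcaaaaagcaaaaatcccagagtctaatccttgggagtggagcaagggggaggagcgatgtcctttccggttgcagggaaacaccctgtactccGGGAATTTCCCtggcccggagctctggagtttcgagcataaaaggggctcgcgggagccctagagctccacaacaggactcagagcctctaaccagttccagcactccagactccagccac
Cxcl2 (chr5:90903649-90903948, plus strand): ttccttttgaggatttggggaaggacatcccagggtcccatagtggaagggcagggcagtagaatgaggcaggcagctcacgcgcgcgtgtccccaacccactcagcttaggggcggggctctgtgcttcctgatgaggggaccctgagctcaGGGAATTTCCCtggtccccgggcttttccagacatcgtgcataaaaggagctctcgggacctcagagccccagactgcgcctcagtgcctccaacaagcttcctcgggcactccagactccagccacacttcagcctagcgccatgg
The letters began 71 and 70 bases before the start in Cxcl1 and 97 and 96 in Cxcl2. They were in 1.47% of all windows and in 6 of 23 chemokine and cytokine genes with a window (26.1%). Among genes at least 4-fold higher in both matrices the share was 2.46%, beside 1.78% of genes tested in both.

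The coagulation system divided between the compartments. F3, tissue factor, which starts coagulation on cell surfaces, stood at 281 and 335 CPM against 6.38 and 3.44, a fold of 44 and 97.4, and was held by 166 and 176 epithelial cells. Over runs it stood at 503, 136, 273, 95.5 and 267 CPM in the CD11c-selected and at 439, 566, 281, 246, 327 and 303 CPM in the CD4/CD8-selected matrix. Every run lay far above the level of the Ptprc-positive cells. F10 and F7 were called lower in the CD11c-selected matrix and were under the minimum in the other. F10, the zymogen of factor Xa, stood at 0.47 and 0.127 CPM against 45.9 and 2.28, and its epithelial level rested on 3 UMIs and 1 UMI. F7, the partner of tissue factor, rested on 2 and 0 UMIs in epithelial cells, against 26.2 and 2.0 CPM in Ptprc-positive cells. F2, prothrombin, had 0 UMIs in CD11c-selected epithelial cells and stood at 0.634 CPM (CI 0.206 to 1.48) in CD4/CD8-selected ones. The protein C receptor gene Procr stood at 2.5 and 1.27 CPM against 40.1 and 11.6. Of 18 coagulation factors and inhibitors 7 and 4 passed the minimum, 1 and 2 of them at least 4-fold higher and 5 and 2 lower, with a median log2 fold of -4.00 and 0.04. Besides F3 the second gene called higher was Pros1, protein S, in the CD4/CD8-selected matrix, at 63.1 and 50.5 CPM against 43.3 and 8.68.

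F2rl1, the gene of PAR2, was higher in epithelial than in Ptprc-positive cells of both matrices. It stood at 61.2 and 52.6 CPM (CI 55.3 to 67.6 and 47.7 to 57.9) against 0.858 and 8.59, a fold of 71.3 and 6.13. It was held by 132 and 121 epithelial cells, or 60.6% and 52.2%, and 12.8% and 9.05% after thinning. In Ptprc-positive cells 0.606% and 4.78% held a UMI, or 0.0713% and 1.63% after thinning. Over runs it stood at 112, 58.9, 54.6, 63.7 and 51.9 CPM in the CD11c-selected and at 75.1, 101, 35.2, 46.5, 49.8 and 47.4 CPM in the CD4/CD8-selected matrix. Of the cells with F2rl1, 114 of 132 and 105 of 121 also held F3, beside 166 of 218 and 176 of 232 of all epithelial cells, and deeper cells are the likelier to show both. The 3 other receptors of the family were low, with F2r (PAR1) at 2.5 and 3.8 CPM against 1.14 and 43.3, F2rl2 (PAR3) at 0 and 0.254 CPM and F2rl3 (PAR4) at 0.313 and 0.254 CPM. Thus 1 of 1 and 1 of 2 receptors past the minimum were at least 4-fold higher, F2rl1 in both matrices. The G37I change lies in this gene, and transcripts of the alleles were not told apart.

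**Figure D3:**
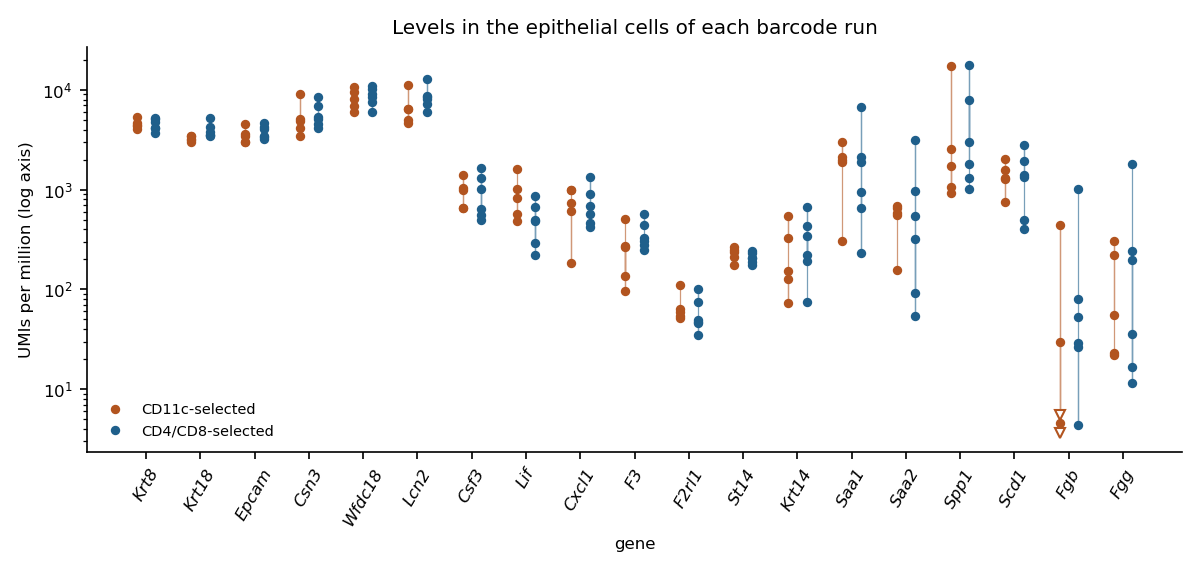
Levels in CPM (y axis, log scale) of named genes (x axis) in the epithelial cells of each barcode run with at least 10 of them, 5 CD11c-selected and 6 CD4/CD8-selected runs, 1 point a run, with open triangles at the limit that 0 UMIs allow. Krt8 and Epcam are genes that the rule used, and Spp1 reaches 17229.7 and 17582 CPM in its highest run of each matrix and 919 and 1007 in its lowest.

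Proteases of the epithelial surface and their inhibitors were high in the same cells. Of 8 genes all passed the minimum, and 7 in each matrix were at least 4-fold higher, with a median log2 fold of 5.12 and 4.81. St14, matriptase, a membrane protease known to cleave PAR2, stood at 234 and 206 CPM against 4.5 and 6.15 and was held by 85.3% and 88.8% of the cells. Prss8, prostasin, which acts with matriptase, stood at 47.7 and 56.7 CPM against 0.511 and 0.485. Their inhibitor Spint2 stood at 664 and 631 CPM against 20.4 and 35.8. Protease and inhibitor were thus both far above the leukocyte level. Klk8, a kallikrein, was called higher in the first and lower in the second matrix, at 16.4 and 6.08 CPM against 2.3 and 98.0. Of 9 genes of plasminogen activation 7 and 6 passed the minimum and 1 and 3 were higher, beside 14.8% and 16.4% of all genes. Their median log2 fold was 0.38 and 2.03. The inhibitor gene Serpine2 stood at 50.7 and 68.6 CPM against 2.5 and 5.75. Plaur, the urokinase receptor, was called in the CD4/CD8-selected matrix, at 242 and 209 CPM against 322 and 48.0. Plau, urokinase, was lower in the first matrix, at 11.6 and 4.18 CPM against 57.8 and 7.84. Plasminogen itself, Plg, was at 0 in the epithelial cells of both.

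Fibrinogen chains appeared in a few cells. Fgb, the beta chain, stood at 242 and 109 CPM against 1.61 and 0.167 and was held by 31 and 27 cells. Fgg, the gamma chain, stood at 184 and 272 CPM against 3.96 and 0.167 and was held by 45 and 42 cells, and 25 and 24 cells held both. Fga, the alpha chain, had 0 UMIs and 1 UMI. In the CD11c-selected matrix the 10 cells highest in Fgb had 84.6% of its UMIs and all lay in 1 run, the run with the most epithelial cells. In the CD4/CD8-selected matrix the 10 highest had 89.0% and lay in 5 runs, and the level over runs was 26.7, 4.33, 29.2, 53.2, 80.0 and 1004 CPM. Fibrinogen transcripts of the beta and gamma chains thus belonged to few cells, without the alpha chain at this depth. Fga, Fgb and Fgg were chosen after their values had been seen.

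Growth factor receptors were mostly higher in the epithelial cells. Of 18 receptor tyrosine kinases 14 passed the minimum, of which 11 and 12 were at least 4-fold higher and 1 lower, with a median log2 fold of 4.13 and 5.65. Epha2, an ephrin receptor, stood at 294 and 215 CPM against 17.4 and 4.57. Fgfr1, a fibroblast growth factor receptor, stood at 279 and 230.3 CPM against 53.7 and 7.59. Kit, the stem cell factor receptor of luminal progenitors, stood at 150.1 and 111 CPM against 24.6 and 2.89. The neuregulin and EGF receptor genes Erbb3, Erbb2 and Egfr were all called higher in both matrices, at 86.7 and 93.8, at 52.0 and 37.9 and at 36.0 and 33.2 CPM. Met, the receptor of hepatocyte growth factor, stood at 99.1 and 66.6 CPM against 5.44 and 0.811. Axl was the gene that was lower, at 10.8 and 6.47 CPM against 206 and 33.3.

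Of 18 ligands 15 and 13 passed the minimum, 6 and 9 of them at least 4-fold higher and 2 and 1 lower, with a median log2 fold of 1.19 and 3.69. Hbegf, heparin-binding EGF-like growth factor, stood at 797 and 655 CPM against 50.9 and 10.9 and was held by 89.9% and 86.6% of the cells. Wnt7b, a Wnt ligand of luminal cells, stood at 85.0 and 62.5 CPM against 0.995 and 0.176. Vegfa, the vessel growth factor, was called in the CD4/CD8-selected matrix, at 258 and 269.8 CPM against 178 and 33.5. The EGF receptor ligand Hbegf was thus high in the population that held the receptor genes. Igf1 belonged to Ptprc-positive cells, at 0.47 and 0.887 CPM against 63.6 and 54.6. Hgf, the ligand of Met, had 0 UMIs and 1 UMI in the epithelial cells.

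Partners of middle T were shared with leukocytes. Of 15 genes all passed the minimum, and 1 and 3 were at least 4-fold higher and 1 lower, with a median log2 fold of 0.33 and 0.54, beside 14.8% and 16.4% higher among all genes. Yes1, a Src family kinase, stood at 58.5 and 42.2 CPM against 2.78 and 24.6. Src stood at 40.7 and 31.4 CPM against 15.2 and 6.46. Fyn stood at 10.6 and 8.75 CPM against 100.3 and 231. Of these kinases Fyn was called lower in both matrices, Yes1 higher in the CD11c-selected and Src higher in the CD4/CD8-selected matrix. Pik3r1, the regulatory subunit of phosphatidylinositol 3-kinase, stood at 154 and 199 CPM against 106 and 112 and was not called.

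Genes named for mammary stem and progenitor cells were mixed. Of 17 genes 13 and 14 passed the minimum, with 7 and 8 at least 4-fold higher and 1 and 2 lower and a median log2 fold of 2.21 and 2.34. Aldh1a3, the aldehyde dehydrogenase of luminal progenitors, stood at 157 and 133 CPM against 1.78 and 1.13. Lgr6 stood at 36.2 and 34.9 CPM against 0.53 and 0.401 and its relative Lgr5, a receptor of stem cells, at 0.783 and 0.127 CPM. Prom1 stood at 24.9 and 21.2 CPM against 0.438 and 0.234. Aldh1a3, Lgr6 and Prom1 were called higher in both matrices, and Procr, a mark of basal stem cells, was called lower in both.

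Estrogen and progesterone receptors were held by a minority of the cells. Of 10 genes of hormone response 8 and 9 passed the minimum, 5 in each matrix at least 4-fold higher and 0 and 2 lower, with a median log2 fold of 2.82 and 3.81. Prlr, the prolactin receptor, stood at 316 and 350.1 CPM against 3.63 and 1.25. Esr1, the estrogen receptor, stood at 20.2 and 15.7 CPM against 3.82 and 1.12 and was held by 27.5% and 20.3%. Pgr, the progesterone receptor, stood at 19.4 and 17.5 CPM against 0.183 and 0.0753 and was held by 16.5% and 16.4%. Areg, the EGF-like ligand that estrogen induces, stood at 166 and 214 CPM against 72.6 and 10.7. Tnfsf11 (RANKL), the signal that progesterone induces, had 0 and 3 UMIs in the epithelial cells.

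MHC class I genes lay near the leukocyte level and class II genes far below it. Of 16 MHC class I pathway genes none was at least 4-fold higher and 0 and 1 were lower, with a median log2 fold of -0.43 and -0.86. H2-K1, a heavy chain, stood at 1881 and 2010.4 CPM against 1777 and 3731. B2m, the light chain, stood at 1284 and 1128 CPM against 3151 and 2957. The exception was the class I activator Nlrc5, at 14.1 and 7.99 CPM against 21.3 and 61.7 and called in the second matrix. Class II genes were at least 4-fold lower in 7 of 7 and in 5 of 6 genes, with a median log2 fold of -7.10 and -5.22. Cd74, the invariant chain, stood at 76.7 and 24.3 CPM against 13259 and 950.1. H2-Aa stood at 42.9 and 12 CPM against 7307 and 516. Both epithelial levels were higher where the level of the Ptprc-positive cells was higher. Macrophage markers stood at 243 and 245 CPM in the epithelial cells and dendritic cell markers at 109 and 31.3 CPM. Their part in the class II values was not tested.

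Ligands of immune checkpoints differed by family. Of 15 genes 13 passed the minimum, 3 and 5 at least 4-fold higher and 4 in each matrix lower. Among all genes 14.8% and 16.4% were higher and 10.3% and 9.25% lower. The median log2 fold of the list was 0.07 and 0.06. Vtcn1 (B7-H4), an inhibitory ligand of mammary epithelium, stood at 36.0 and 52.9 CPM against 0.356 and 0.301 and was held by 39.9% and 46.6% of the cells. Nectin2, a ligand of TIGIT and CD226, stood at 102 and 110.4 CPM against 5.47 and 1.77. Ceacam1 stood at 208 and 133 CPM against 8.65 and 3.79. These 3 genes were called higher in both matrices. Cd274 (PD-L1) stood at 1.72 and 3.04 CPM against 47.3 and 42.4. Cd86, the costimulator, stood at 1.25 and 0.38 CPM against 231 and 44.3. Of the B7 family, Vtcn1 was thus at least 4-fold higher and Cd274 and Cd86 at least 4-fold lower than in Ptprc-positive cells in both matrices.

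Most interferon-related genes lay within 4-fold of the level in Ptprc-positive cells, and those past it were nearly all lower. Of 23 receptors and induced genes 22 and 23 passed the minimum, 0 and 1 at least 4-fold higher and 5 and 7 lower, with a median log2 fold of -0.56 and -0.30, beside 10.3% and 9.25% lower among all genes. They summed to 1298 and 1433 CPM against 2924 and 3502. Isg15, a ubiquitin-like protein, stood at 146 and 168 CPM against 166 and 182. Irf7, a factor of the interferon response, stood at 154 and 144 CPM against 138 and 126. Ifi44 was the gene called higher, in the second matrix, at 50.4 and 51.6 CPM against 14.8 and 4.62. Ifit1 spread over runs from 14.2 to 248 and from 37.3 to 556 CPM. Ifnar1, a receptor of type I interferon, stood at 20.4 and 19.9 CPM against 107 and 105. Ifngr1, of the interferon gamma receptor, stood at 39.3 and 47.7 CPM against 186 and 760.0. Both receptors were called lower in both matrices.

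Of 11 genes of nucleic acid sensing 9 and 8 passed the minimum, 0 and 1 higher and 1 lower in each matrix, with a median log2 fold of 0.07 and -0.12. Mb21d1 (cGAS), a sensor of DNA, was the gene that was lower, at 0.939 and 1.27 CPM against 15.2 and 11.2. Tmem173 (STING), which acts downstream of it, was not called, at 21.9 and 21.8 CPM against 52.7 and 28.6. Ifnb1, interferon beta, had 0 UMIs in the CD11c-selected cells and 3 UMIs in 1 CD4/CD8-selected cell. Of 4 genes of PyMT tumor antigens that the study names, 3 passed the minimum and none was called, with a median log2 fold of 0.60 and 0.43. Hspa4l, a chaperone gene, stood at 40.9 and 47.7 CPM against 27.0 and 31.1. Lyar stood at 32.7 and 37.1 CPM against 36.8 and 50.5. Ddx20, a helicase gene, stood at 11.9 and 11.2 CPM against 6.41 and 8.28. Acrbp, under the minimum, stood at 6.73 and 5.07 CPM against 3.73 and 2.33.

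The cycling genes Mki67 and Top2a were held by few cells, though 88.5% and 84.9% of the cells held a UMI of at least 1 S phase gene and 68.3% and 70.7% of at least 1 G2 and M phase gene. Of 14 S phase genes 13 passed the minimum, none at least 4-fold higher and 1 and 2 lower, with a median log2 fold of -1.06 and -1.61. Of 15 G2 and M phase genes 9 and 11 passed it, none higher and 1 lower in each matrix, with a median log2 fold of -1.14 and -0.57. Mki67, a mark of cycling cells, stood at 12.8 and 24.1 CPM against 76.8 and 76.4, was held by 10 and 19 epithelial cells and was called lower in the first matrix. Top2a stood at 35.2 and 37.8 CPM against 68.7 and 124 and was held by 18 and 27. Both lay under the level of the leukocytes. Over runs Mki67 stood at 0, 1.84, 22.9, 0 and 3.05 CPM and at 0, 21.6, 42.5, 16.8, 10.4 and 13.5 CPM. Of 13 cyclins and inhibitors 11 and 12 passed the minimum, 2 in each matrix higher and 1 and 3 lower. Among all genes 14.8% and 16.4% were higher and 10.3% and 9.25% lower. The median log2 fold of the list was 0.24 and 0.19. Ccnd1, cyclin D1, stood at 148 and 146 CPM against 125 and 17.1 and was called in the second matrix. Ccnd2, cyclin D2, stood at 1.25 and 5.2 CPM against 71.2 and 281 and was called lower in both. The inhibitor Cdkn2a stood at 17.7 and 21.4 CPM against 0.813 and 7.22 and was called in the first.

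Metabolic genes were mostly shared. Of 23 genes of glycolysis and hypoxia 22 and 23 passed the minimum, 4 and 5 at least 4-fold higher and 1 lower. Their median log2 fold was -0.10 and 0.57, and 14.8% and 16.4% of all genes were higher. Ldha, lactate dehydrogenase, stood at 542 and 624 CPM against 528 and 421 and was not called. Among genes higher in both matrices Ndrg1, a hypoxia-induced gene, stood at 436 and 354 CPM against 103 and 21.7. Car12, a carbonic anhydrase, stood at 53.7 and 45.8 CPM against 0.785 and 1.84. The lactate exporter gene Slc16a3 was lower, at 5.48 and 3.8 CPM against 88.9 and 25.8. Of 17 genes of lipid and sterol synthesis 16 and 17 passed the minimum, 6 and 5 higher and 1 and 0 lower, with a median log2 fold of 1.29 and 1.33. Scd1, a fatty acid desaturase, stood at 1323 and 1814 CPM against 21.0 and 12.9 and was held by 86.2% and 86.6% of the cells. Srebf1, which drives fatty acid synthesis, stood at 158 and 149.8 CPM against 22.7 and 17.8. Both were called in both matrices. Fasn, fatty acid synthase, stood at 58.2 and 48.8 CPM against 21.0 and 26.0 and was not called.

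Stress and immediate early genes were high in both kinds of cell. Of 19 genes 18 and 19 passed the minimum, 2 and 4 at least 4-fold higher and none lower. Their median log2 fold was 0.19 and 0.37, and 14.8% and 16.4% of all genes were higher. Ier3, an immediate early gene, stood at 2514 and 3434 CPM against 512 and 90.7. Hspb1, a small heat shock protein, stood at 1089 and 1159 CPM against 26.7 and 33.1. Both were called in both matrices. Fosb, of the AP-1 factor, stood at 1555 and 1284 CPM against 864 and 557 and was not called. The tumors were digested and the cells frozen, and the part of this handling in these genes was not tested. Of 20 genes of matrix and its proteases 13 and 10 passed the minimum, 7 and 6 higher and 2 and 0 lower, with a median log2 fold of 4.34 and 3.48. Lama5, a laminin of the basement membrane, stood at 122 and 69.2 CPM against 2.04 and 0.702. The membrane metalloproteinase gene Mmp15 stood at 79.1 and 64.1 CPM against 1.42 and 1.04. Both were called in both matrices. Mmp9, a secreted metalloproteinase, had 0 UMIs in the CD11c-selected cells and stood at 0.38 CPM (CI 0.0784 to 1.11) in the CD4/CD8-selected cells.

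Variation among the epithelial cells was highest for a few genes of secreted proteins, with mitochondrial and noncoding transcripts after them. After thinning, the ratio of variance to mean over cells, which is 1 for counting error alone, was highest for Scgb1b27 (253), Scgb2b27 (203) and Spp1 (89.1) in the CD11c-selected matrix and for Spp1 (123), Saa1 (78.9) and Saa2 (44.3) in the CD4/CD8-selected matrix. Next in the CD11c-selected matrix were Malat1 (40.9), Ltf (38.7), Wfdc18 (32.6), Saa1 (27.4), Gm42418 (18.8), Csn3 (15.8) and mt-Atp6 (13.6). Those of the CD4/CD8-selected matrix were mt-Atp6 (44.3), mt-Co3 (35.2), Malat1 (35.1), Wfdc18 (26.7), Cst3 (26.6), Scgb2b27 (25.9) and mt-Co2 (25.4). The secretoglobin Scgb1b27 had 89.8% of its UMIs in 1 cell of the CD11c-selected matrix, and Scgb2b27 56.1%. Spp1 was spread wider, with 53.6% and 53.0% of its UMIs in the 10 highest cells, and over runs it stood at 1060.4, 17229.7, 2550.4, 919 and 1718 and at 1007, 1319, 17582, 3034, 7823 and 1817 CPM. Saa1 stood over runs at 304, 3013, 1982, 1892 and 2122 and at 953, 234, 6667, 2132, 1893 and 652 CPM. In both genes the highest run was over 9 times the lowest in each matrix.

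The cells fell on a range of Csn3, along which other luminal genes were arranged. A cell with at most 1 UMI of Csn3 after thinning to 2000 UMIs was called Csn3-low. This split was chosen after the values had been seen and is a cut through a range and not a cell type. The Csn3-low cells were 77 of 218 (35.3%, CI 29.0% to 42.1%) and 71 of 232 (30.6%, CI 24.7% to 37%), of which 51 and 53 had no thinned UMI and 26 and 18 had 1. A further 9 cells in each matrix lay just above the line with 2. They were 12.5% to 41.7% and 15% to 50% of the epithelial cells of a run. Their median depth was 23999 and 24562 UMIs, against 19656 and 20883 in the Csn3-high cells.

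At 50 CPM or more in either class, 67 of 3516 genes (1.91%) were at least 4-fold higher in Csn3-low cells of the CD11c-selected matrix and 44 (1.25%) lower. In the CD4/CD8-selected matrix 77 of 3479 (2.21%) were higher and 41 (1.18%) lower. Of these, 40 genes were higher in both matrices, 59.7% of the first list and 51.9% of the second, and 24 were lower in both, 54.5% and 58.5%. As every gene was measured in the cells that were split, these counts describe the split. The genes named for it here, unless they belong to the lists above, were chosen after their values had been seen.

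Several genes of hormone sensing were higher in Csn3-low cells. Esr1 stood at 39.3 against 8.95 CPM in the CD11c-selected and 34.6 against 7.18 CPM in the CD4/CD8-selected matrix, Csn3-low against Csn3-high. Pgr stood at 40.1 against 7.21 CPM in the CD11c-selected and 45.6 against 4.79 CPM in the CD4/CD8-selected matrix. Prlr stood at 532 against 188 CPM in the CD11c-selected and 801 against 146 CPM in the CD4/CD8-selected matrix. All 3 receptors were higher in the Csn3-low cells in each of the 3 and 6 runs with at least 5 cells of both classes. After thinning, a UMI of Esr1 was held by 7.79% and 2.82% of the Csn3-low cells. Pgr was held by 3.90% and 4.23% and Prlr by 44.2% and 45.1% of them. Foxa1, the pioneer factor of the estrogen receptor, stood at 84.9 against 18.2 CPM in the CD11c-selected and 103 against 15.5 CPM in the CD4/CD8-selected matrix. Cited1, a coactivator of that receptor, stood at 365 against 39.5 CPM in the CD11c-selected and 377 against 14.7 CPM in the CD4/CD8-selected matrix. Wnt4, a signal that progesterone induces in sensing cells, stood at 152 against 29.1 CPM in the CD11c-selected and 203 against 35.4 CPM in the CD4/CD8-selected matrix. These 3 too were higher in every run compared. Areg stood at 349 against 58.2 CPM in the CD11c-selected and 459 against 103 CPM in the CD4/CD8-selected matrix and was higher in 3 of 3 and 4 of 6 runs.

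Krt19 stood on the same side, at 4244 against 772 CPM in the CD11c-selected and 3969 against 775 CPM in the CD4/CD8-selected matrix. Ly6a, a surface protein used to sort hormone-sensing luminal cells, stood at 1592 against 328 CPM in the CD11c-selected and 2219 against 281 CPM in the CD4/CD8-selected matrix. Krt19 and Ly6a were higher in every run compared. With no thinned UMI of Csn3 as the line, the log2 folds of Foxa1, Esr1 and Krt19 in the CD11c-selected matrix were 1.49, 1.80 and 1.88, under the 4-fold line, and without its second run that of Foxa1 was 1.96. The uroplakin gene Upk3a, at 259.9 against 1.99 CPM in the CD11c-selected and 145 against 3.13 CPM in the CD4/CD8-selected matrix, was higher in 2 of 3 and 6 of 6 runs. The alarmin gene Il33 stood at 102 against 2.98 CPM in the CD11c-selected and 164 against 5.71 CPM in the CD4/CD8-selected matrix. Fgg stood at 376 against 71.1 CPM in the CD11c-selected and 799 against 33.7 CPM in the CD4/CD8-selected matrix. Both were higher in 3 of 3 and 5 of 6 runs. After thinning, a UMI of Upk3a was held by 9.09% and 8.45% of the Csn3-low cells. Il33 was held by 10.4% and 15.5% and Fgg by 23.4% and 26.8% of them, so these levels rest on a minority of the class. F3 stood at 461 against 175 CPM in the CD11c-selected and 592 against 219 CPM in the CD4/CD8-selected matrix, under the 4-fold line, and was higher in each of the 3 and 6 runs. F2rl1 stood at 60.4 against 61.7 CPM in the CD11c-selected and 40.7 against 58.0 CPM in the CD4/CD8-selected matrix, and the Csn3-low level was the higher in 3 of 3 runs of the first and 0 of 6 of the second matrix. Tissue factor thus leaned to the Csn3-low side and PAR2 to no side that the matrices share. Krt14 stood at 229.9 against 182 CPM in the CD11c-selected and 315 against 365 CPM in the CD4/CD8-selected matrix.

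Several secretory genes were higher in Csn3-high cells. Lalba stood at 4.65 against 255 CPM in the CD11c-selected and 28.5 against 395 CPM in the CD4/CD8-selected matrix. Elf5 stood at 14.8 against 82.8 CPM in the CD11c-selected and 24.0 against 93.0 CPM in the CD4/CD8-selected matrix. Trf, transferrin, stood at 698 against 3876 CPM in the CD11c-selected and 777 against 3203 CPM in the CD4/CD8-selected matrix. All 3 were higher in the Csn3-high cells in every run compared. Saa1 stood at 125 against 2777 CPM in the CD11c-selected and 307 against 4733 CPM in the CD4/CD8-selected matrix. Spp1 stood at 523 against 5009 CPM in the CD11c-selected and 1961 against 11552 CPM in the CD4/CD8-selected matrix. Folr1, a folate receptor, stood at 13.1 against 126 CPM in the CD11c-selected and 23.2 against 140.1 CPM in the CD4/CD8-selected matrix. These 3 and Lcn2, at 2480.2 against 9073 CPM in the CD11c-selected and 2134 against 11270.2 CPM in the CD4/CD8-selected matrix, were likewise on the Csn3-high side in every run. Wfdc2, a secreted relative of whey acidic protein, went the other way, at 2354 against 426 CPM in the CD11c-selected and 2692 against 435 CPM in the CD4/CD8-selected matrix, and was higher in Csn3-low cells in every run compared. Without cells in the highest 5% of UMIs of their matrix 153 CD11c-selected and 93 CD4/CD8-selected epithelial cells were left. The log2 folds of Lalba in the CD11c-selected and of Saa1 in the CD4/CD8-selected matrix were then -1.09 and -1.68, under the 4-fold line. Without cells holding a UMI of 8 immune genes that of Spp1 in the CD4/CD8-selected matrix was -1.51. Lyz2 of macrophages stood at 32.1 against 29.6 CPM in the CD11c-selected and 37.4 against 37.9 CPM in the CD4/CD8-selected matrix. Krt8, which the rule used, stood at 5449 against 4204 CPM in the CD11c-selected and 4879.8 against 3992 CPM in the CD4/CD8-selected matrix. Epcam, used too, stood at 2619 against 3721 CPM in the CD11c-selected and 2791 against 4190.4 CPM in the CD4/CD8-selected matrix, so these 3 genes differed by under 2-fold between the classes.

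**Figure D4:**
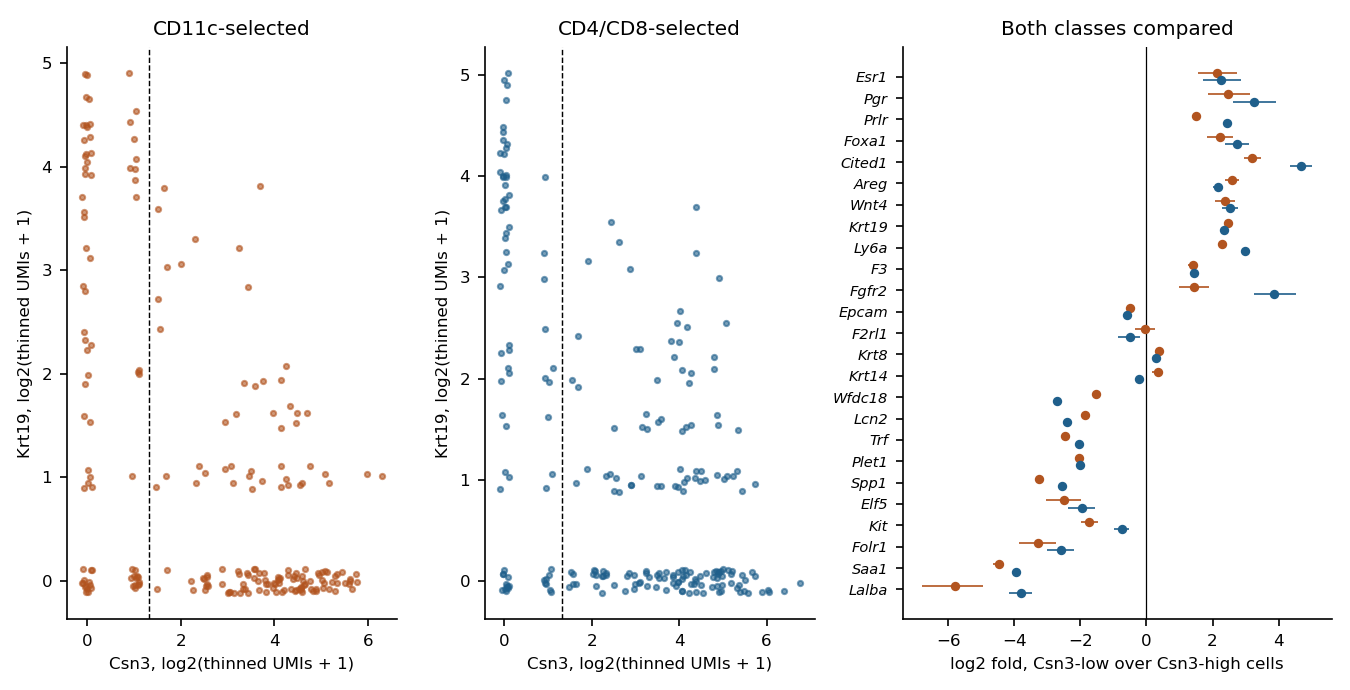
Krt19 (y axis) against Csn3 (x axis) in each epithelial cell, both as log2 of thinned UMIs plus 1 with points moved slightly apart at random, for the CD11c-selected (left) and CD4/CD8-selected matrix (middle), with the Csn3-low line dashed, and log2 folds of Csn3-low over Csn3-high cells with 95% counting intervals (right, same colors). Cells with high Krt19 gather at low Csn3, where 42 and 43 Csn3-low but 15 and 25 Csn3-high cells have at least 3 thinned Krt19 UMIs, and Esr1, Pgr and Cited1 lie right of 0 and Elf5, Saa1 and Lalba left of it.

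Proliferation genes rested on few cells. Top2a stood at 83.2 against 6.96 CPM in the CD11c-selected and 102 against 8.84 CPM in the CD4/CD8-selected matrix, and the Csn3-low level was the higher in 1 of 3 and 4 of 6 runs. A single cell had 47.1% of the Top2a UMIs of the CD11c-selected and 1 cell 32.9% of those of the CD4/CD8-selected epithelial cells. Without the third run of the CD11c-selected matrix Top2a was lower in Csn3-low cells there, with a log2 fold of -1.80. Without cells in the highest 5% of UMIs of their matrix 153 and 93 epithelial cells were left, 52 and 21 of them Csn3-low. The log2 folds of Top2a were then -0.56 and 0.0068. With no thinned UMI of Csn3 as the line that of the CD4/CD8-selected matrix was 1.76. Ube2c, of mitotic exit, stood at 61.7 against 2.74 CPM in the CD11c-selected and 129 against 4.23 CPM in the CD4/CD8-selected matrix, and the Csn3-low level was the higher in 3 of 3 and 4 of 6 runs. Mki67 stood at 22.4 against 7.21 CPM in the CD11c-selected and 68.4 against 4.05 CPM in the CD4/CD8-selected matrix.

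Levels in the epithelial cells of the matrices lay close together. Of 3335 genes with at least 50 CPM in either, 8 (0.24%) differed by at least 4-fold and 99.1% by less than 2-fold, with a median absolute log2 fold of 0.22. Across these genes, which are not independent replicates, Pearson's r of log2 levels was 0.965 and Spearman's rho 0.926, and all points share the same pair of pooled libraries. Of the genes at least 4-fold higher than in Ptprc-positive cells, 1065 were so in both matrices, which is 78.3% of those of the CD11c-selected and 70.7% of those of the CD4/CD8-selected matrix. Of those lower, 497 were shared, 52.8% and 58.5%, and 8 genes were called in opposite directions. The Ptprc-positive cells set against them differed between the matrices, with macrophage markers at 37465 and 15775 CPM and T cell markers at 49.1 and 6446 CPM.

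Of the 8 genes that differed, 6 were higher in CD11c-selected and 2 in CD4/CD8-selected epithelial cells. Gm42418, a predicted gene, was the one whose runs did not overlap, at 14311 against 2864 CPM, and it stood at 15179 against 3187 in Ptprc-positive cells. Its fold was 5.0 in epithelial and 4.76 in Ptprc-positive cells, so the difference was not particular to the epithelial cells. H2-Ab1, a class II gene, stood at 57.9 against 14.3 CPM, and at 7966 against 513 in Ptprc-positive cells. Scgb1b27 stood at 414 against 2.03 CPM and Scgb2b27 at 721 against 136 CPM, both with most UMIs of the CD11c-selected cells in 1 cell. Car6, a secreted carbonic anhydrase, stood at 108 against 20.2 CPM and Atp6v1g3, a proton pump subunit, at 102 against 13.9 CPM. Ptn, pleiotrophin, stood at 7.98 against 61.6 CPM from 7 and 18 cells, and 2310057J18Rik at 17.8 against 74.3 CPM from 9 and 13 cells. The runs of these 7 genes overlapped between the matrices. Apart from Gm42418 these names were chosen after their values had been seen.

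For 128 of the 3335 genes (3.84%) the runs of the matrices did not overlap. Besides Gm42418 the highest folds toward the CD11c-selected cells were those of Lars2, a mitochondrial leucyl-tRNA synthetase, at 3.87-fold, Rnf217 at 2.17-fold and Gm10076 at 2.11-fold, followed by the plakin Ppl at 1.90-fold and the laminin Lama5 at 1.76-fold. Toward the CD4/CD8-selected cells they were those of the histone gene H2afz, with a ratio of 0.580, Msrb1 (0.606) and Rab20 (0.607). Except for Gm42418 all of these were under the 4-fold line. Selection and tumor stage differ between the matrices and cannot be told apart.

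**Figure D5:**
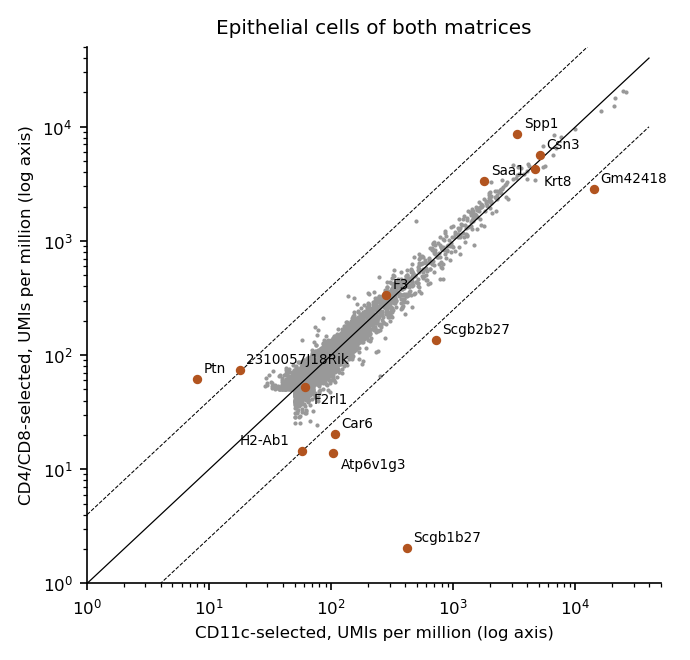
Level in CD11c-selected (x axis) against CD4/CD8-selected epithelial cells (y axis), in CPM on log axes, for the 3335 genes with at least 50 CPM in either (grey points), with equality as a solid and 4-fold as dashed lines. The 8 genes past 4-fold are colored and labelled, as are Csn3, Krt8, Saa1, Spp1, F3 and F2rl1, which lie inside the lines.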

How the data were processed

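Single-cell RNA libraries had been made from cells of PyMT tumors, from mice that were PAR2 WT or PAR2 G37I, after magnetic beads had taken CD11c+ cells of late-stage tumors or CD4 and CD8 T cells of mid-size tumors, which were stored frozen and thawed. The authors deposited 1 sparse matrix of raw UMI counts, not normalized, for each selection, covering 31053 genes. The submitters' processing notes name Cell Ranger 3.0.2 and mm10. Each matrix pools 6 samples (3 per genotype), and no barcode names its sample, so each was 1 sample without replicate error, and no test was run.

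The rule for the epithelial cells, the gene lists and the rule for named genes were chosen with earlier results of these data known. UMIs were summed over cells, scaled to 1000000 and given with exact Poisson intervals, and shares with exact binomial (Clopper-Pearson) intervals, both at 95% and for counting error only. A count of 0 was set to 3 counts over the group for a bound. Cells were thinned once to 2000 UMIs with a fixed seed. Depth was 123700899 and 136024767 UMIs for the CD11c-selected and CD4/CD8-selected matrix, and 13314063 to 24245504 and 16222260 to 30182353 per barcode run. No doublet caller was run. Of 528 list genes 525 were in the files, with 3 symbols unmatched (Cgas and Sting1, listed as Mb21d1 and Tmem173, and Aldoa).

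Named were list genes, above all those highest in each list or against its direction, the 15 genes of highest fold and of highest level, the 10 of highest variance over mean and the 10 of highest fold each way between the matrices with runs apart. Names outside this rule were taken after values were seen, as the text says. Promoter windows were RefSeq's on GRCm38.p6, with the letters of an E-box and of an NF-kB site searched on both strands. Alternatives were other minimums of keratin, UMIs and CPM, no condition on Ptprc, thinning, means over cells and left-out runs or cells. Python 3.11.15, numpy 2.4.6, scipy 1.17.1, pandas 2.3.3 and matplotlib 3.10.9 were used, and scripts were tested on simulated data.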

Additional observations from a re-analysis of the deposited data

Results flagged for a closer look

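Levels and cell numbers of the barcode runs were screened by Dixon's gap criterion for a run apart from the others of its matrix. Chance meets it in about 1 of 20 groups (5%) if values are normally distributed. The levels were screened as untransformed CPM, for which that share need not hold. Of 68 groups 18 (26.5%) met it, and genes that rest on few cells and the same run recur among them.

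In the third run of the CD11c-selected matrix 6.35% of cells were epithelial, and its epithelial cells had the highest levels of Fgb (445 CPM), Mki67 (22.9 CPM), Vim (63.9 CPM) and Lalba (246 CPM). In the second run of that matrix Krt19 was lowest at 243 CPM, while Lcn2 was highest at 11187 CPM and Spp1 highest at 17229.7 CPM. The first run was lowest in Saa2 at 155 CPM and highest in F2rl1 at 112 CPM. The fifth run, with 10 epithelial cells, was highest in Ltf at 4785 CPM. The fourth, with 4 epithelial cells, had a median of 114126 UMIs per epithelial cell.

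In the CD4/CD8-selected matrix the third run was highest in Saa1 at 6667 CPM and in Saa2 at 3106 CPM. The fourth run was highest in Gm42418 at 6189.9 CPM and in Scgb2b27 at 541 CPM. The sixth run was highest in Fgb at 1004 CPM and in Fgg at 1800.2 CPM. Runs are not known to be samples, and what sets them apart was not tested.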

How the results depend on the processing

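No paired analysis was possible because cells of all samples are pooled in each matrix and no result comes from a test. Over named genes, 955 of 960 recomputed log2 folds against Ptprc-positive cells kept their call as higher, lower or neither. The other 5 were called where they had not been. Of 374 folds between the Csn3 classes 346 were counted as unchanged, 15 passed the 4-fold line, 11 no longer did and 2 reversed. Of 1165 list medians 1006 moved by less than their spread over runs, 153 moved further and 6 reversed. A change of direction was not counted where a fold or median was under 4-fold with all cells. The cause of no change was tested.

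Without epithelial cells holding a UMI of 8 immune genes, 83 CD11c-selected and 127 CD4/CD8-selected cells were left, with 30 and 37 Csn3-low cells, 115 genes higher and 76 lower in Csn3-low cells of the CD11c-selected matrix, and 16 genes past 4-fold between the matrices. Without cells in the highest 5% of UMIs of the matrix, 153 CD11c-selected and 93 CD4/CD8-selected epithelial cells were left. Of the 93 cells 21 were Csn3-low, with 129 genes higher in them, and 23 genes differed between the matrices. At a minimum of 50 CPM 501 genes were higher and 498 lower than in Ptprc-positive cells of the CD11c-selected matrix, and 576 and 418 of the CD4/CD8-selected matrix. Between the matrices 31 genes differed at a minimum of 5 CPM, 21 at 10 CPM, 18 after thinning and 13 with no condition on Ptprc. With no thinned UMI of Csn3 as the line, 51 CD11c-selected cells were Csn3-low and 40 genes were higher in them. The alternatives of the Csn3 split and the 10 CPM minimum were chosen after seeing the data.

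With each run left out in turn, CD11c-selected epithelial cells numbered 110 (without the third run) to 214 and CD4/CD8-selected 164 to 212. Genes higher than in Ptprc-positive cells numbered 1352 to 1393 and 1474 to 1631, and genes lower 929 to 973 and 846 to 872. Csn3-low cells numbered 33 (without the third run) to 76 and 44 (without the third run) to 64, genes higher in them 58 to 73 and 73 to 91, and genes lower in them 45 to 71 (without the first run) and 37 to 68 (without the first run, and 67 without the third). Between the matrices 6 to 10 genes differed. The median log2 fold of the fibroblast list in CD11c-selected cells, -3.531 with all cells, was 1.456 after thinning and -3.693 to 0.1213 with each run left out, the latter without the third run. That of the pericyte list in CD4/CD8-selected cells, 6.011 with all cells, was -0.4971 at a minimum of 5000 UMIs and -0.3649 (without the sixth run) to 5.817 with runs left out, with -0.1797 and -0.1736 without the first and second. The log2 fold of Top2a between the Csn3 classes of the CD11c-selected matrix, positive with all cells, was -0.5626 without the highest 5% of UMIs (0.0068 in the CD4/CD8-selected matrix) and -1.802 (without the third run) to 4.413 with runs left out.

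Depth limits what can be read from single cells, since at 2000 UMIs a gene of 50 CPM is expected in few of them. Free RNA and doublets can add transcripts of other cells. Cells that met the epithelial conditions but held Ptprc UMIs were counted among the Ptprc-positive cells. Genotype could not be compared.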
